A study of Mus musculus with 12 samples.

Results

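The 10 genes described here belong to the melanosome and to the pigmented epithelium of the eye, and were chosen by their symbols: Mitf, Pmel, Mlana, Tyr, Tyrp1, Dct, Oca2, Slc45a2, Slc24a5 and Rpe65. Earlier results of these data were known when they were chosen, so their shares beside those of all genes are a description. Each symbol occurred once among the 24147 genes counted in every library, and all 10 genes passed the filter on low counts. Slc45a2 passed it through the WT 48 h libraries, the one group in which all 3 libraries held at least 10 of its counts. Rpe65 had that many in all 3 libraries of both 0 h groups and in 1 library of each 48 h group. Mlana had that many in all 3 libraries of both WT groups, in 2 FNcKO 48 h libraries and in no FNcKO 0 h library. These 3 genes thus passed the filter through groups in which they were higher.

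RNA was sequenced from the lens capsule with the lens epithelial cells left on it after the fiber cells had been taken out of the lens of living mice, 2 months old, as a model of cataract surgery. The 4 groups of 3 libraries were FNcKO at 48 h after surgery, FNcKO at 0 h, WT at 48 h and WT at 0 h. FNcKO mice carry a conditional knockout of fibronectin on a mixed C57BL/6, 129 and FVB/N background, and WT mice were C57BL/6, so genotype and strain cannot be told apart in any comparison between them. FVB/N mice are albino through an allele of Tyr. The sources used here do not give which Tyr allele each FNcKO animal carried, the promoter that drove Cre, or the number of animals behind a library. Replicates are called biological by the submitters. In a combined table deposited with the libraries, the column named for WT 0 h replicate 1 held the counts deposited for FNcKO 0 h replicate 1, so results were also computed without both of these 0 h libraries.

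Melanin is made in melanosomes, organelles of the lysosome family that are built in stages. In the eye they are found in the pigment epithelia of the retina, ciliary body and iris, which arise from the optic cup, and in melanocytes of the iris stroma and the choroid, which arise from the neural crest. The transcription factor MITF switches on many of the genes for melanosome proteins in both lineages. The lens epithelium itself makes no melanin, but the capsule is tied to the ciliary body by the zonule fibers and lies against the iris.

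The libraries held 8368160 to 10862573 counts. Levels are given as counts per 1e6 scaled by the trimmed mean of M values (CPM), and differences were tested by edgeR's quasi-likelihood F test over 14560 genes with Benjamini-Hochberg (BH) adjustment, with an adjusted p under 0.05 taken as the threshold. The lens epithelium list of 9 genes summed to 11390 to 213000 CPM in the 12 libraries, against 23.0 to 504 CPM for the 10 pigment genes. Most of each lens sum was the crystallin genes Cryaa and Cryab, so the sums describe these more than the list. Among the other genes of the list, Foxe3 ran from 5.07 to 130 CPM and Pax6 from 294 to 521 CPM. Lens transcripts were thus present in every library, and the pigment genes were a small part of the counts. In such bulk RNA, a change in the number of pigmented cells and a change in RNA per cell cannot be told apart.

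The pigment genes did not move as a block over the 48 h after surgery in WT capsules. Of the 10 genes, 4 were higher at 48 h (Mitf, Mlana, Tyr and Slc24a5) and 2 were lower (Oca2 and Rpe65), where 19.1% of all tested genes were called higher and 13.5% lower, 32.6% in either direction. The median log2 change of the 10 was 1.35, against 0.02 over all tested genes. In 7 of the 10 genes no 48 h library fell inside the 0 h range, as in 51.5% of all tested genes.

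Mitf (chr6:97807058-98021358, mm10) encodes the regulator of the pigment program. It had 43.1, 22.7 and 13.6 CPM in the WT 48 h libraries, against 7.22, 9.38 and 7.22 CPM in the WT 0 h libraries. Every WT 48 h library lay above every WT 0 h library, with replicate 1 far above the other two. The fitted change was 3.33-fold (edgeR log2 1.74, SE 0.37, BH-adjusted p = 0.00318).

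Pmel (chr10:128706258-128720238) encodes the amyloid-forming protein of the fibrils on which melanin is laid down. It had 60.6, 47.4 and 18.1 CPM in WT at 48 h, against 7.82, 46.4 and 5.18 CPM in WT at 0 h. The 0 h library with 46.4 CPM overlapped the 48 h group, and Pmel did not pass the threshold (edgeR log2 1.08, SE 0.70, BH-adjusted p = 0.260). Without that library, WT 0 h replicate 2, its log2 change was 2.66 (edgeR, BH-adjusted p = 0.00343). Its span overlaps that of Dgka, which did not pass in any comparison.

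Mlana (chr19:29697941-29708306) encodes MART-1, a small membrane protein that binds PMEL during the building of the melanosome. It had 26.2, 20.1 and 6.74 CPM in WT at 48 h, against 1.10, 5.50 and 1.57 CPM in WT at 0 h. The groups did not overlap, and Mlana rose 6.44-fold, the largest of the 4 rises (edgeR log2 2.69, SE 0.60, BH-adjusted p = 0.00459).

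Tyr (chr7:87427405-87493411) encodes tyrosinase, the copper enzyme of the rate-limiting step of melanin synthesis. It had 60.7, 20.2 and 16.7 CPM in WT at 48 h, against 5.11, 8.36 and 5.78 CPM in WT at 0 h. All 48 h libraries were higher, and replicate 1 stood well above the other two. Tyr rose 5.06-fold (edgeR log2 2.34, SE 0.57, BH-adjusted p = 0.00883), and its call was lost when both 0 h libraries numbered 1 were left out (edgeR, BH-adjusted p = 0.0530).

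Its relatives Tyrp1 (chr4:80834213-80851736), which encodes an enzyme or stabilizer of the eumelanin branch, and Dct (chr14:118012790-118052246), which encodes dopachrome tautomerase, had the highest levels by CPM of the 10 genes in WT at 48 h. Tyrp1 had 149, 145 and 71.7 CPM at 48 h, against 57.2, 83.9 and 74.9 CPM at 0 h. Dct had 131, 155 and 52.0 CPM at 48 h, against 52.6, 70.7 and 19.6 CPM at 0 h. For both genes 1 library, replicate 3, brought the 48 h group into the range of the 0 h group, and neither passed the threshold (Tyrp1 log2 0.76, SE 0.40, edgeR, BH-adjusted p = 0.162; Dct log2 1.24, SE 0.63, BH-adjusted p = 0.159).

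The transporter genes of the set differed among themselves. Slc24a5 (chr2:125068127-125088677), which encodes the potassium-dependent sodium/calcium exchanger NCKX5, had 23.3, 14.5 and 8.19 CPM in WT at 48 h, against 3.31, 5.81 and 1.69 CPM in WT at 0 h. It rose 4.22-fold with no overlap between the groups (edgeR log2 2.08, SE 0.50, BH-adjusted p = 0.00703). Its span overlaps that of Myef2, which was higher at 48 h by a log2 change of 0.67 in WT (edgeR, BH-adjusted p = 0.00901), and the sources used here do not give how reads in shared sequence were counted.

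Oca2 (chr7:56239771-56536517), which encodes the P protein that raises melanosome pH, went the other way. It had 7.99, 11.5 and 3.73 CPM in WT at 48 h, against 97.9, 57.0 and 90.2 CPM in WT at 0 h. The highest 48 h library was below the lowest 0 h library by a wide margin, and Oca2 was 10.5-fold lower (edgeR log2 −3.40, SE 0.41, BH-adjusted p = 0.000125). Slc45a2 (chr15:11000721-11029233), which encodes the transporter MATP, was near the limit of detection, with 46 counts in all over the WT 48 h libraries and 15 over the WT 0 h libraries, 1 of which had none. It had 1.52, 1.46 and 1.55 CPM at 48 h, against 0, 1.02 and 0.602 CPM at 0 h, and did not pass (edgeR, BH-adjusted p = 0.165).

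Rpe65 (chr3:159599181-159625307) encodes the retinoid isomerase of the visual cycle, an enzyme of the retinal pigment epithelium and no part of the melanosome. It had 0.475, 1.26 and 0.726 CPM in WT at 48 h, against 13.2, 22.6 and 14.8 CPM in WT at 0 h. It was 20.3-fold lower (edgeR log2 −4.34, SE 0.82, BH-adjusted p = 0.00219), on 25 counts over the 48 h libraries and 477 over the 0 h libraries. Oca2 and Rpe65 thus shared their direction, opposite to that of Mitf, Mlana, Tyr and Slc24a5.

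**Figure D1:**
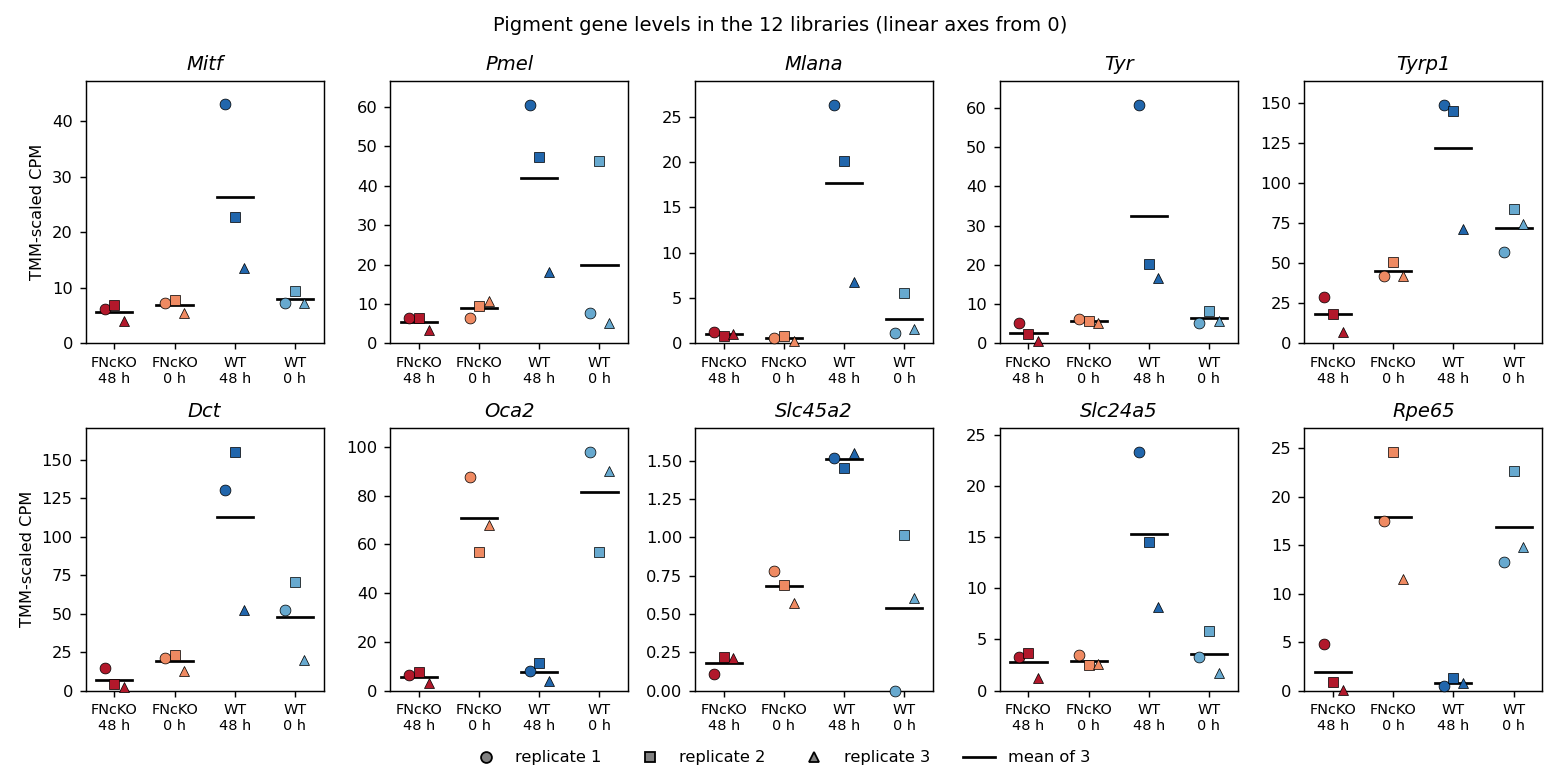
Level of each of the 10 genes (TMM-scaled CPM, linear axes from 0) in FNcKO 48 h, FNcKO 0 h, WT 48 h and WT 0 h libraries; each point is 1 library, its shape gives the replicate number, and bars are means of 3. Oca2 and Rpe65 were low in both 48 h groups, while the other 8 genes had all WT 48 h libraries above all FNcKO 48 h libraries.

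The promoter windows of the genes on either side of this split were set next to each other. RefSeq windows (GRCm38.p6, the assembly of mm10) of 250 bases before to 50 bases after the start were found for 7 of the 10 genes, in 9 windows. Shown are Tyr and Slc24a5, called higher at 48 h in WT, and Oca2 and Rpe65, called lower at 48 h in both genotypes, on the strand of the gene; capitals mark CATGTG or its reverse complement CACATG, the E-box letters at the core of the M-box that MITF is known to bind.
Windows at chr7:87493463-87493762 (minus strand), chr2:125067877-125068176 (plus), chr7:56239509-56239808 (plus) and chr3:159598931-159599230 (plus), in this order:
Tyr: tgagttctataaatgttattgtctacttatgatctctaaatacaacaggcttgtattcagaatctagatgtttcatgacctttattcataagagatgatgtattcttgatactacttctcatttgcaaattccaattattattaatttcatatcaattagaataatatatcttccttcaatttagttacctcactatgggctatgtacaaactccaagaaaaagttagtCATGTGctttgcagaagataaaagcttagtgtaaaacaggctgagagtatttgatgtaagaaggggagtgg
Slc24a5: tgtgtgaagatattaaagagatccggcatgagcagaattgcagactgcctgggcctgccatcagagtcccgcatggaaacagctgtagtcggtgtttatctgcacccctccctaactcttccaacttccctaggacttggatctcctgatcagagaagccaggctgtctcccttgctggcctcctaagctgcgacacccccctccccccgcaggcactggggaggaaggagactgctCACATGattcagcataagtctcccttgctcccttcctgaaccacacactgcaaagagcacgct
Oca2: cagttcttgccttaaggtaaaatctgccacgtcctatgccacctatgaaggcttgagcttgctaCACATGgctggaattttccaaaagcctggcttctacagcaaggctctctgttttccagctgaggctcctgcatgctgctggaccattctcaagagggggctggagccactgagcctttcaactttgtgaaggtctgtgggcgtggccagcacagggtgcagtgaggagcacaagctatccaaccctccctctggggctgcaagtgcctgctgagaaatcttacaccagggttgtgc
Rpe65: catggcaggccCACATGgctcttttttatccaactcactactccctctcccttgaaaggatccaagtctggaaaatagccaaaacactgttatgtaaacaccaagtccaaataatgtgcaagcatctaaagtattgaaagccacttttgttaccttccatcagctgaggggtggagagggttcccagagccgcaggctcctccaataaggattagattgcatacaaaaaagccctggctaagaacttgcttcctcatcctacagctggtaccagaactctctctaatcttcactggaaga

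CATGTG on either strand was in a window of 6 of the 7 matched genes, and in 14.2% of all 32851 windows of that length. Here and below, counts of the matched genes are by gene, where Mitf had 3 windows, and percentages are by window, so they are not in like units. It began 21 bases before the RefSeq start of Tyr, 46 before that of Tyrp1 and 13 before that of Slc24a5. In Dct it was found at 232 and 150 bases before the start, in Oca2 at 186 and in Rpe65 at 239. The Tyr window, from chr7:87493463, lies outside the counted span of Tyr, which ends at 87493411, so its distance holds for the RefSeq start only. The longer core TCATGTG, which contains the first motif, was in the windows of Tyr, Tyrp1, Dct and Slc24a5 and not in those of Oca2, Rpe65 or Mitf, and 3.77% of all windows held it. The palindrome CACGTG was in no window of the 7 genes and in 7.15% of all windows. The letters TAATCC, of the type bound by OTX homeobox factors, were in windows of Tyrp1, Dct, Rpe65 and Mitf and in 7.06% of all windows. These are matches of letters in short windows, and no binding was measured.

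In FNcKO capsules none of the 10 genes was called higher over the same interval by edgeR or DESeq2. Of the 10 genes, 3 were lower at 48 h (Oca2, Rpe65 and Tyrp1), where 14.9% of all tested genes were called higher and 9.9% lower, 24.8% in either direction. At an unadjusted p under 0.05 the edgeR count was also 3, all of them lower. The median log2 change of the 10 was −1.19, against 0.00184 over all tested genes. The 48 h and 0 h libraries were apart in 5 of the 10 genes and in 37.5% of all tested genes.

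Oca2 had 6.55, 7.53 and 2.96 CPM in FNcKO at 48 h, against 87.6, 56.9 and 68.2 CPM in FNcKO at 0 h. It was 12.5-fold lower (edgeR log2 −3.64, SE 0.42, BH-adjusted p = 0.000148), beside a log2 change of −3.40 in WT. Rpe65 had 4.75, 0.873 and 0.106 CPM in FNcKO at 48 h, against 17.5, 24.6 and 11.5 CPM in FNcKO at 0 h. Its 48 h libraries spread widely, with replicate 1 highest, and all lay below the 0 h libraries; it was 9.29-fold lower (edgeR log2 −3.22, SE 0.75, BH-adjusted p = 0.00915), or by a log2 change of −5.17 without FNcKO 48 h replicate 1.

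Tyrp1 had 28.8, 18.6 and 6.97 CPM in FNcKO at 48 h, against 42.1, 50.9 and 42.1 CPM in FNcKO at 0 h. The groups did not overlap, and Tyrp1 was 2.49-fold lower (edgeR log2 −1.31, SE 0.41, BH-adjusted p = 0.0376). That call was lost in 8 of 19 alternatives, among them total counts as the scale, no filter, and the absence of any 1 of the FNcKO 0 h libraries or of replicate 2 or 3 at 48 h. The log2 value then ran from −1.82 to −0.93 over all fits without 1 library.

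The other genes of the synthesis of melanin did not pass in FNcKO. Dct had 14.4, 4.47 and 2.11 CPM at 48 h, against 21.3, 22.8 and 12.5 CPM at 0 h (edgeR log2 −1.44, SE 0.69, BH-adjusted p = 0.158). Tyr had 5.17, 2.29 and 0.739 CPM at 48 h, against 6.14, 5.77 and 5.30 CPM at 0 h (edgeR log2 −1.07, SE 0.61, BH-adjusted p = 0.227). Both genes passed as lower without FNcKO 48 h replicate 1 (log2 −2.52, edgeR, BH-adjusted p = 0.0213 for Dct and log2 −1.92, BH-adjusted p = 0.0419 for Tyr), which made 5 genes called in place of 3.

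Of the 4 genes called higher in WT, none passed in FNcKO. Mitf had 6.23, 6.87 and 4.12 CPM at 48 h, against 7.26, 7.84 and 5.45 CPM at 0 h (edgeR log2 −0.26, SE 0.38, BH-adjusted p = 0.664). Slc24a5 had 3.27, 3.71 and 1.27 CPM at 48 h, against 3.46, 2.54 and 2.58 CPM at 0 h (edgeR log2 −0.06, SE 0.53, BH-adjusted p = 0.951). The groups overlapped in both genes, and the sign of the Slc24a5 value turned with total counts as the scale (0.19).

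Mlana had 1.27, 0.764 and 1.06 CPM in FNcKO at 48 h, against 0.559, 0.807 and 0.287 CPM in FNcKO at 0 h, from 29 and 14 counts in all (edgeR log2 0.86, SE 0.77, BH-adjusted p = 0.457). Pmel had 6.33, 6.55 and 3.49 CPM at 48 h, against 6.37, 9.57 and 10.7 CPM at 0 h (edgeR log2 −0.70, SE 0.76, BH-adjusted p = 0.548). Slc45a2 had 0.106, 0.218 and 0.211 CPM at 48 h, against 0.782, 0.692 and 0.573 CPM at 0 h, from 5 and 17 counts in all (edgeR, BH-adjusted p = 0.169). Neither Mlana nor Pmel separated the 2 times, whereas the few counts of Slc45a2 were lower in every 48 h library.

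At 48 h, some of the genes differed between FNcKO and WT capsules. Of the 10 genes, 4 were lower in FNcKO (Mlana, Tyr, Tyrp1 and Mitf) and none was higher by edgeR or DESeq2, where 0.199% of all tested genes were called lower and 0.0412% higher, 0.24% in either direction. At an unadjusted p under 0.05 the edgeR count was 8, all of them lower. The 4 were among 29 genes called lower in all. The libraries of the genotypes did not overlap in 8 of the 10 genes, and in 9.74% of all tested genes. The median log2 difference of the 10 was −2.85, against 0.01 over all tested genes. Because the 10 genes were chosen with earlier results of these data known, these shares do not test them as a set.

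Mlana averaged 1.03 ± 0.253 CPM in FNcKO and 17.7 ± 9.97 CPM in WT at 48 h (SD, n = 3 each), a 17.0-fold lower level (edgeR log2 −4.09, SE 0.66, BH-adjusted p = 0.0271). Tyr averaged 2.74 ± 2.25 CPM in FNcKO and 32.5 ± 24.4 CPM in WT, 11.8-fold lower (edgeR log2 −3.57, SE 0.62, BH-adjusted p = 0.0442). Tyrp1 averaged 18.1 ± 10.9 CPM in FNcKO and 122 ± 43.6 CPM in WT, 6.74-fold lower (edgeR log2 −2.75, SE 0.43, BH-adjusted p = 0.0292). In each of these genes the highest FNcKO library was below the lowest WT library. Mitf averaged 5.74 ± 1.44 CPM in FNcKO and 26.5 ± 15.1 CPM in WT, 4.61-fold lower (edgeR log2 −2.20, SE 0.37, BH-adjusted p = 0.0316).

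These calls changed with the libraries in the fit. In a fit of the 48 h libraries alone, 9 of the 10 genes were tested and 0 passed, with log2 values between −4.09 and −2.20 for the 4 genes. Among the WT 48 h libraries, leaving out replicate 1 or replicate 2 gave 0 calls. Among those of FNcKO at 48 h, the fit without replicate 2 gave 0 calls and that without replicate 3 gave 1. The 0 h libraries, which are part of the same fit, also mattered: of those of FNcKO, leaving out replicate 1, 2 or 3 gave 0, 1 or 2 calls in that order, and of those of WT, leaving out replicate 1 gave 2. Without both 0 h libraries numbered 1 there were 0 calls. DESeq2 called 7 of the 10 genes lower, the 4 together with Dct, Pmel and Slc24a5. The 4 differences stayed below 0 in all 19 alternatives.

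Dct, Slc24a5, Pmel and Slc45a2 were also lower in every FNcKO 48 h library than in any WT 48 h library, but did not pass. Dct averaged 6.98 ± 6.50 CPM in FNcKO and 112 ± 53.8 CPM in WT (SD, n = 3 each), with a log2 difference of −4.01 (SE 0.72, edgeR, BH-adjusted p = 0.0653). Slc24a5 averaged 2.75 ± 1.30 CPM in FNcKO and 15.3 ± 7.59 CPM in WT (edgeR log2 −2.47, SE 0.51, BH-adjusted p = 0.0848). Pmel averaged 5.46 ± 1.71 CPM in FNcKO and 42.0 ± 21.7 CPM in WT (edgeR log2 −2.94, SE 0.77, BH-adjusted p = 0.303). Slc45a2 had 5 counts over the FNcKO 48 h libraries and 46 over the WT 48 h libraries (edgeR, BH-adjusted p = 0.395).

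Oca2 and Rpe65, the genes that were lower at 48 h in both genotypes, overlapped between them. Oca2 averaged 5.68 ± 2.41 CPM in FNcKO and 7.73 ± 3.87 CPM in WT at 48 h (SD, n = 3 each; log2 −0.45, SE 0.41, edgeR, BH-adjusted p = 1.0). Rpe65 averaged 1.91 ± 2.49 CPM in FNcKO and 0.821 ± 0.402 CPM in WT (edgeR log2 1.21, SE 0.86, BH-adjusted p = 1.0), and its sign turned without FNcKO 48 h replicate 1 (−0.75).

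At 0 h none of the 10 genes was called between the genotypes by edgeR or DESeq2, and edgeR called 0.0755% of all tested genes higher and 0.0687% lower, 0.144% in either direction. At an unadjusted p under 0.05 the edgeR count was 1, Mlana, with 0.559, 0.807 and 0.287 CPM in FNcKO, against 1.10, 5.50 and 1.57 CPM in WT (edgeR log2 −2.26, SE 0.72, BH-adjusted p = 0.336). Mlana and Tyrp1 were lower in every FNcKO library than in any WT library, and the libraries of 16.6% of all tested genes did not overlap. Tyrp1 averaged 45.0 ± 5.04 CPM in FNcKO and 72.0 ± 13.6 CPM in WT (SD, n = 3 each; log2 −0.68, SE 0.40, edgeR, BH-adjusted p = 0.532). Oca2 averaged 70.9 ± 15.5 CPM in FNcKO and 81.7 ± 21.8 CPM in WT, and Rpe65 17.9 ± 6.56 CPM in FNcKO and 16.9 ± 5.03 CPM in WT.

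**Figure D2:**
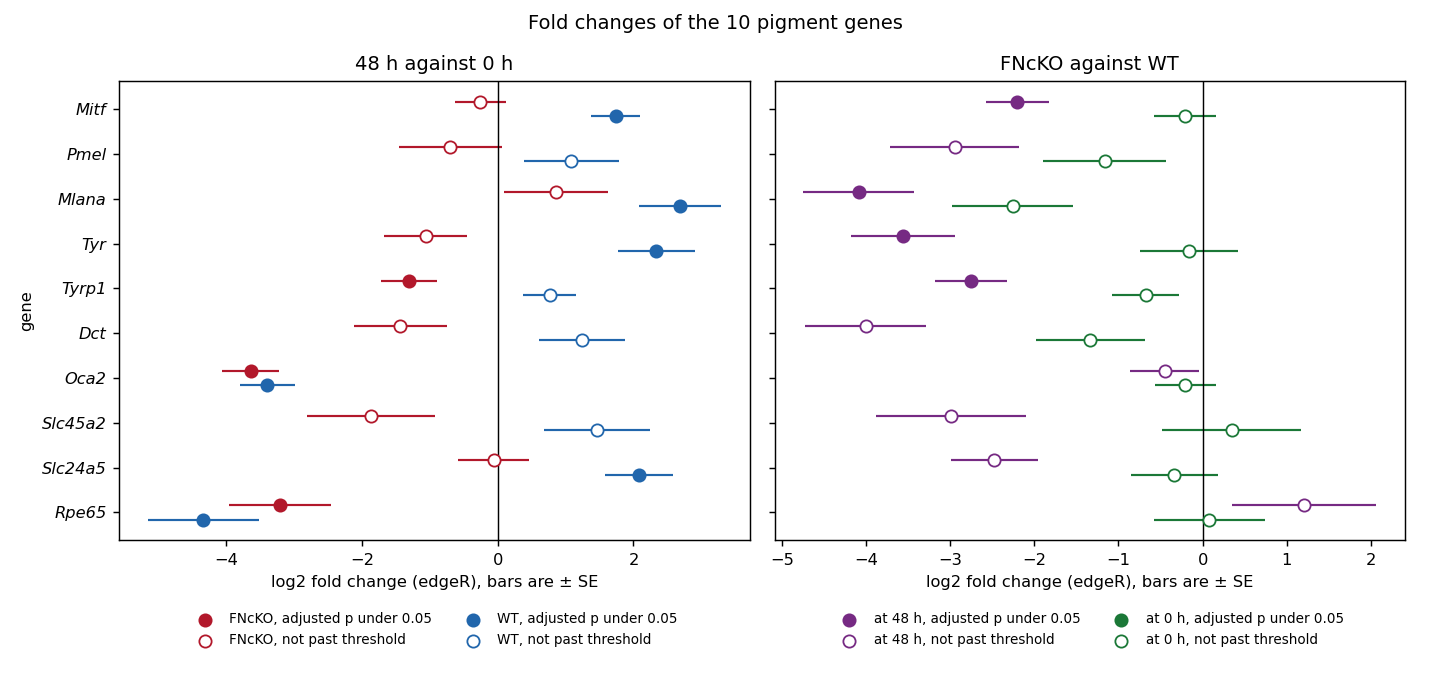
Log2 fold changes of the 10 genes with bars of ± 1 SE (edgeR, n = 3 libraries per group), 48 h against 0 h on the left (FNcKO red, WT blue) and FNcKO against WT on the right (48 h purple, 0 h green); filled points have a BH-adjusted p under 0.05. The 4 filled blue points to the right of 0 are Mitf, Mlana, Tyr and Slc24a5, and the 4 filled purple points are Mitf, Mlana, Tyr and Tyrp1.

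Whether the response over 48 h itself differed between FNcKO and WT was tested in the same fit. None of the 10 genes passed, as was so for all 14560 genes (0.0% called, edgeR), while 6 of the 10 and 735 of all tested genes had an unadjusted p under 0.05. The largest difference was that of Tyr (FNcKO minus WT, log2 −3.41, SE 0.83, edgeR, BH-adjusted p = 0.636), followed by Slc45a2 (−3.34, SE 1.23, BH-adjusted p = 0.945) and Dct (−2.67, SE 0.94, BH-adjusted p = 0.945). Mitf differed by −1.99 (SE 0.52, edgeR, BH-adjusted p = 0.665) and Oca2 by −0.25 (SE 0.55, BH-adjusted p = 0.965). DESeq2 called 1 of the 10, Tyr (BH-adjusted p = 0.0199). A rise in WT and none in FNcKO is therefore not shown by edgeR to be a difference in response.

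Levels per length, taken from the deposited RPKM (counts divided by coding length and library total), show how the order of the genes changed. In FNcKO at 48 h Tyrp1 led with 6.83 ± 3.97 RPKM (SD, n = 3), followed by Dct with 3.20 ± 2.94 RPKM. Each gene in that order overlapped the next down to Tyr, in place 9 with 0.857 ± 0.694 RPKM, which did not overlap Slc45a2 below it. In FNcKO at 0 h Oca2 led with 19.8 ± 5.26 RPKM, followed by Tyrp1 with 14.3 ± 2.90 and Rpe65 with 8.66 ± 3.91 RPKM, each overlapping the next.

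In WT at 48 h Dct led with 56.2 ± 27.2 RPKM, followed by Tyrp1 with 50.1 ± 18.8 RPKM and Mlana with 43.6 ± 25.5 RPKM. Oca2, with a mean of 2.79 RPKM, had 7 of the genes above it and did not overlap Slc45a2 below it. In WT at 0 h Tyrp1 led with 25.6 ± 6.35 RPKM and Oca2 followed with 25.1 ± 5.30 RPKM, while Mlana had 5.96 ± 5.65 RPKM. Mlana, the shortest of the 10 with a coding length of 461 bases in the files, thus ranked much higher per length than by CPM.

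The ratio of 1 gene to another in the same library does not depend on the scaling of libraries. The RPKM ratio of Oca2 to Tyrp1 was 0.201, 0.358 and 0.375 in FNcKO at 48 h, against 1.84, 0.987 and 1.43 in FNcKO at 0 h. In WT it was 0.0473, 0.0696 and 0.0459 at 48 h, against 1.51, 0.5998 and 1.06 at 0 h. In both genotypes every 48 h library was below every 0 h library, and at 48 h every FNcKO library was above every WT library. Tyrp1, the divisor, was 6.74-fold lower in FNcKO than in WT at 48 h, while the CPM of Oca2 overlapped between the genotypes.

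The ratio of Rpe65 to Tyrp1 was 0.246, 0.0704 and 0.0227 in FNcKO at 48 h, against 0.623, 0.722 and 0.407 in FNcKO at 0 h. In WT it was 0.00477, 0.0130 and 0.0151 at 48 h, against 0.346, 0.403 and 0.296 at 0 h. As with Oca2, the 48 h libraries were all below the 0 h libraries, and those of FNcKO at 48 h were above those of WT at 48 h. The CPM of Rpe65 also overlapped between the genotypes at 48 h, and its FNcKO 48 h ratios rest on 45, 8 and 1 counts.

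Mlana, by contrast, was higher relative to Tyrp1 in every 48 h library than in the 0 h libraries of the same genotype. The ratio was 0.263, 0.246 and 0.906 in FNcKO at 48 h, against 0.0793, 0.0949 and 0.0407 in FNcKO at 0 h. In WT it was 1.05, 0.826 and 0.561 at 48 h, against 0.115, 0.392 and 0.125 at 0 h. The ratio of Mitf to Tyrp1 ranged from 0.115 to 0.314 in FNcKO at 48 h and from 0.0688 to 0.0917 in FNcKO at 0 h, and from 0.0832 to 0.154 in WT at 48 h and from 0.0513 to 0.0671 in WT at 0 h. In FNcKO the divisor, Tyrp1, was itself 2.49-fold lower at 48 h, while the CPM of Mlana and of Mitf overlapped between the times. The Mlana ratios of FNcKO rest on 29 counts in all at 48 h and 14 at 0 h. The genes thus did not keep 1 ratio to Tyrp1 between the times. No test was run on these ratios.

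**Figure D3:**
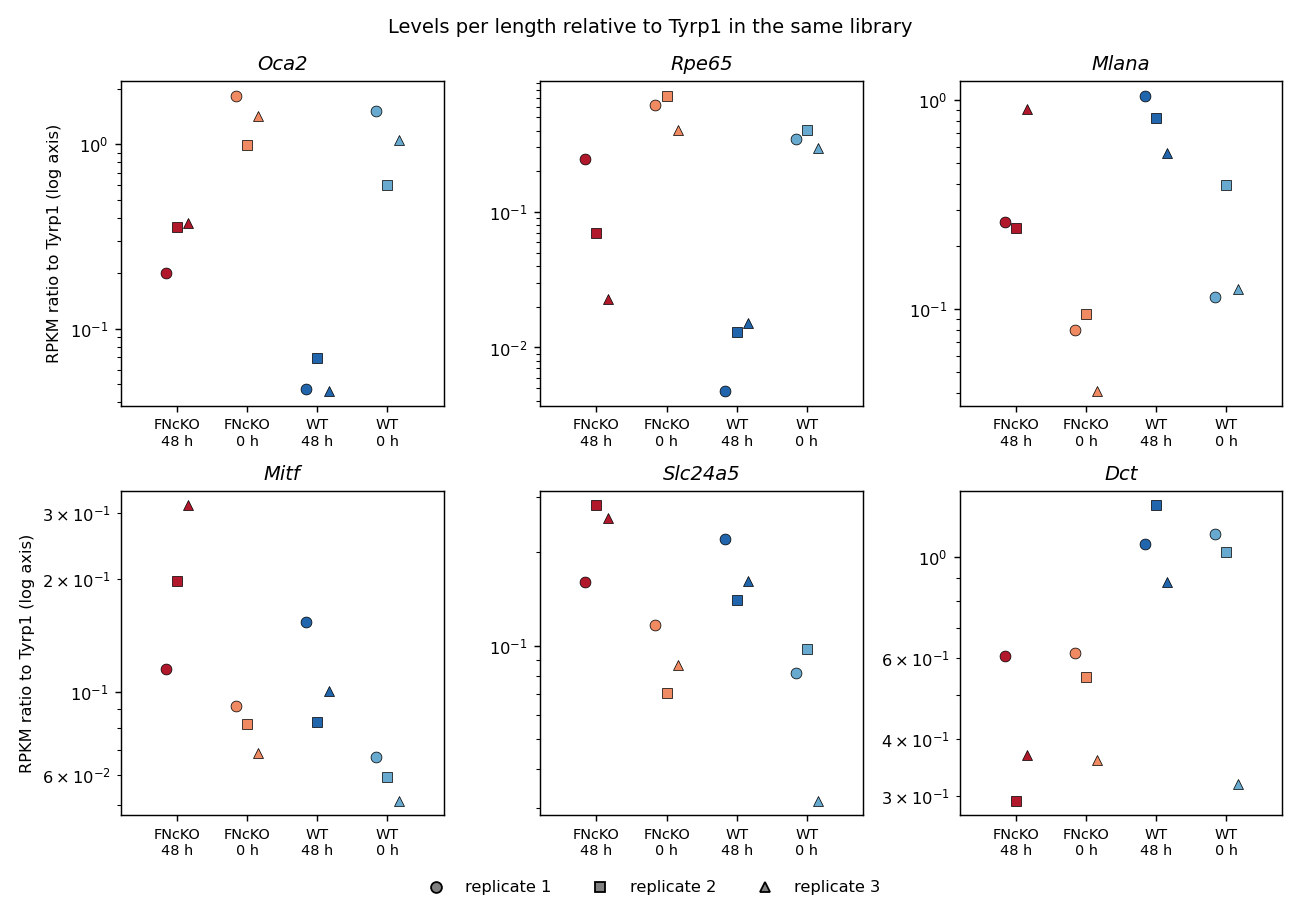
RPKM of 6 genes divided by the RPKM of Tyrp1 in the same library (log axes), in FNcKO 48 h, FNcKO 0 h, WT 48 h and WT 0 h libraries; each point is 1 library. Oca2 and Rpe65 have lower ratios at 48 h than at 0 h of the same genotype, and Mlana, Mitf and Slc24a5 have higher ones. In FNcKO, Tyrp1 itself was lower at 48 h, and the CPM of Mlana, Mitf and Slc24a5 overlapped between the times.

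Within a group the genes tended to be high or low in the same libraries. Replicate 3 had the lowest level of 8 of the 10 genes among the FNcKO 48 h libraries and of 8 of the 10 among the WT 48 h libraries, and WT 0 h replicate 2 had the highest level of 9 of the 10 in its group. The sum of the 10 genes was 76.9, 51.8 and 23.0 CPM in FNcKO at 48 h and 193, 182 and 159 CPM in FNcKO at 0 h. In WT the sum was 504, 439 and 193 CPM at 48 h and 246, 311 and 222 CPM at 0 h. The summed level thus spread more widely at 48 h than at 0 h in both genotypes. This was not so of every gene: from the lowest to the highest library, Pmel spanned 3.34-fold in WT at 48 h and 8.96-fold in WT at 0 h, and Mlana 1.66-fold in FNcKO at 48 h and 2.82-fold in FNcKO at 0 h.

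Genes outside the 10 that followed them most closely were ranked by Pearson's r of log2 CPM over the 12 libraries, a description in which the points share time and genotype. Sytl2, a gene of melanosome and vesicle transport, stood first for Mlana (0.960) and Mitf (0.947) and in second place for Slc24a5 (0.913). Tspan10, a tetraspanin gene, stood first for Dct (0.951), and Rint1 first for Tyrp1 (0.957). For Oca2 the first was Atg13 (0.986), and for Rpe65 it was Mmp15 (0.982). The first was Lrrn4cl for Tyr (0.923), Tas1r3 for Pmel (0.882) and Them7 for Slc24a5 (0.930). For Slc45a2 it was C1qb (0.815), a gene of the macrophage list below. C2 was second for Tyr (0.919) and Lbp for Mlana (0.936). Ranked by deviations from the group means, Sytl2 was not among the first 3 genes of any of the 10. Each r is over the same 12 libraries, and many genes changed over time.

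Of 32 further genes for melanosome proteins, organelle building and melanosome transport, 31 were tested. At 48 h against 0 h, 4 were higher and 1 lower in FNcKO, and 9 were higher and 2 lower in WT. Gpnmb, a relative of Pmel that macrophages also express, had 624, 310 and 212 CPM in FNcKO at 48 h, against 44.9, 38.5 and 21.5 CPM in FNcKO at 0 h (log2 3.45, edgeR, BH-adjusted p = 0.000885). In WT it had 1181, 1120 and 523 CPM at 48 h, against 38.0, 79.7 and 31.2 CPM at 0 h (log2 4.24, edgeR, BH-adjusted p = 0.000224). Gpnmb thus passed as higher in both genotypes, which none of the 10 genes did.

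Between the genotypes at 48 h, 2 of the 31 were called, both lower in FNcKO and both for proteins that bind RAB27A on the melanosome. Sytl2 had 3.70, 1.96 and 1.80 CPM in FNcKO, against 38.4, 16.9 and 6.95 CPM in WT (edgeR log2 −3.06, SE 0.57, BH-adjusted p = 0.0492). Mlph, which encodes melanophilin, had 11.8, 7.09 and 8.03 CPM in FNcKO, against 28.7, 62.9 and 21.5 CPM in WT (edgeR log2 −2.07, SE 0.38, BH-adjusted p = 0.0487). Rab27a, whose product melanophilin binds, averaged 5.65 ± 0.938 CPM in FNcKO and 17.4 ± 4.05 CPM in WT (SD, n = 3 each) and did not pass (log2 −1.63, edgeR, BH-adjusted p = 0.167). The libraries of the genotypes did not overlap in any of the 3 genes.

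The other members of the MITF family, Tfeb, Tfe3 and Tfec, were higher at 48 h in both genotypes, where Mitf was called in WT. Tfe3 rose by a log2 change of 0.58 in FNcKO (edgeR, BH-adjusted p = 0.00668) and 0.67 in WT (BH-adjusted p = 0.00219). Tfeb rose by 0.74 in FNcKO (edgeR, BH-adjusted p = 0.0234) and 0.95 in WT (BH-adjusted p = 0.00473). Tfec, which macrophages express, had 0.739, 0.327 and 5.39 CPM in FNcKO at 48 h and no count in any FNcKO 0 h library. Between the genotypes at 48 h none of the 3 was called by edgeR or DESeq2, and 1, Tfec, had an unadjusted p under 0.05.

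Lists of genes that mark pigmented or neighbouring cells were read beside these results. Of 7 markers of neural crest melanocytes, Sox10 and Pax3 did not pass the filter, with Sox10 at 0 to 1.75 CPM and without a count in 4 of the 12 libraries, and Pax3 at 0 to 0.680 CPM and without a count in 3. Ednrb, the endothelin receptor, was higher at 48 h in both genotypes (log2 4.20 in FNcKO, edgeR, BH-adjusted p = 0.00107; 4.22 in WT, BH-adjusted p = 0.000582), and Kit, the stem cell factor receptor, was called lower in FNcKO (log2 −1.63, BH-adjusted p = 0.0458), beside a log2 value of −1.31 in WT that did not pass (BH-adjusted p = 0.0783); the difference of the responses was −0.32 (BH-adjusted p = 0.966). The list summed to 49.9 to 85.6 CPM in FNcKO at 48 h and 28.4 to 43.7 CPM in FNcKO at 0 h, and to 56.7 to 187 CPM in WT at 48 h and 32.8 to 41.1 CPM in WT at 0 h.

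Of 11 further genes of the retinal pigment epithelium and the visual cycle, 1 was higher (Rdh5) and 1 lower (Trpm3) at 48 h in FNcKO, and 3 were higher (Stra6, Rdh5 and Mertk) and 4 lower (Rgr, Slc16a8, Trpm3 and Rlbp1) in WT. Rgr, which encodes a retinal G protein-coupled receptor, had 0.285, 6.70 and 2.28 CPM in WT at 48 h, against 39.5, 90.1 and 47.6 CPM in WT at 0 h (log2 −4.25, edgeR, BH-adjusted p = 0.0149). Rdh5, a retinol dehydrogenase gene, rose by 1.15 in FNcKO (edgeR, BH-adjusted p = 0.00223) and 1.70 in WT (BH-adjusted p = 0.000141). The list summed to 484 to 932 CPM in FNcKO at 48 h and 1215 to 1975 CPM in FNcKO at 0 h, and to 531 to 749 CPM in WT at 48 h and 1536 to 2188 CPM in WT at 0 h. Most of each sum was 1 gene, Trpm3, an ion channel gene, which averaged 590 CPM in FNcKO at 48 h and 1442 CPM in FNcKO at 0 h, and 442 CPM in WT at 48 h and 1629 CPM in WT at 0 h, so the sums describe Trpm3 more than the list.

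Of 8 ciliary epithelium genes, 2 were higher and 2 lower at 48 h in FNcKO, and 1 higher and 4 lower in WT. Col9a1, a collagen gene of the ciliary epithelium, was lower in both (log2 −2.06 in FNcKO, edgeR, BH-adjusted p = 8.25e-05; −2.57 in WT, BH-adjusted p = 1.48e-05), as was Best2, a bestrophin gene (−1.43 in FNcKO, edgeR, BH-adjusted p = 0.0171; −1.81 in WT, BH-adjusted p = 0.0038). Mab21l2 was higher in both (0.67 in FNcKO, edgeR, BH-adjusted p = 0.00707; 0.50 in WT, BH-adjusted p = 0.0260), and Ltbp2 was higher in FNcKO (0.77, BH-adjusted p = 0.0487). The list summed to 1800 to 2140 CPM in FNcKO at 48 h and 1689 to 2020 CPM in FNcKO at 0 h, and to 1398 to 2064 CPM in WT at 48 h and 1930 to 2685 CPM in WT at 0 h. Most of each sum was Ltbp2 and Optc, so the sums describe these more than the list. Of 10 macrophage genes, 4 were higher at 48 h in each genotype and none was lower, with sums of 132 to 313 CPM in FNcKO at 48 h, 50.5 to 101 CPM in FNcKO at 0 h, 212 to 490 CPM in WT at 48 h and 64.6 to 155 CPM in WT at 0 h.

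Of 7 genes of the iris and ciliary muscle, several of which smooth muscle elsewhere also expresses, 6 were tested. At 48 h against 0 h, 1 was higher (Smtn) and 1 lower (Chrm3) in FNcKO, and 2 were higher (Smtn and Cnn1) and 1 lower (Chrm3) in WT. The list summed to 44.3 to 73.2 CPM in FNcKO at 48 h and 35.0 to 46.3 CPM in FNcKO at 0 h, and to 80.7 to 136 CPM in WT at 48 h and 33.5 to 54.4 CPM in WT at 0 h. This sum was lower in every FNcKO 48 h library than in any WT 48 h library. Most of each 48 h sum was 1 gene, Smtn, with 29.6, 64.05 and 56.6 CPM in FNcKO and 118, 58.0 and 74.3 CPM in WT. The Smtn libraries overlapped between the genotypes, so the sums describe Smtn more than the list. The median log2 difference of the list between the genotypes at 48 h was −1.31. Of the 6 genes, 3 had an unadjusted p under 0.05, namely Cnn1 (−4.05, edgeR, BH-adjusted p = 0.201), Myh11 (−2.16, BH-adjusted p = 0.820) and Smtn (−0.74, BH-adjusted p = 0.804). Of the others tested, Des (−1.88) and Synpo2 (−0.73) were lower and Chrm3 (0.21) was higher in FNcKO, without passing.

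The sum of 10 photoreceptor genes ran from 285 to 6377 CPM over the 12 libraries. Between the genotypes at 48 h, edgeR called none of the genes of the melanocyte, retinal pigment epithelium, ciliary epithelium, iris and ciliary muscle, macrophage and photoreceptor lists. At an unadjusted p under 0.05 there were 4 macrophage, 3 muscle, 2 ciliary epithelium and 1 retinal pigment epithelium genes among them, and DESeq2 called 1, a macrophage gene. The sums of 7 stroma and 7 endothelium genes overlapped between the genotypes at 48 h. Most of each of these stroma sums was Ptgds and Ogn, so they describe these genes more than the list. The median log2 difference was −0.85 for the stroma and −1.01 for the endothelium list, and edgeR called no gene of either. Dcn and Lum of the stroma list and Cdh5 of the endothelium list were lower in every FNcKO library than in any WT library. Ogn (log2 0.73), Pdgfra (0.28) and, by mean CPM, Kdr and the untested Foxc2 were higher in FNcKO. The macrophage and melanocyte sums also overlapped between the genotypes at 48 h, although the highest value of each was in WT. The highest melanocyte sum, 187 CPM in WT 48 h replicate 1, was mostly Ednrb with 163.5 CPM. The part of these cells in the levels of the 10 genes was not tested.

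**Figure D4:**
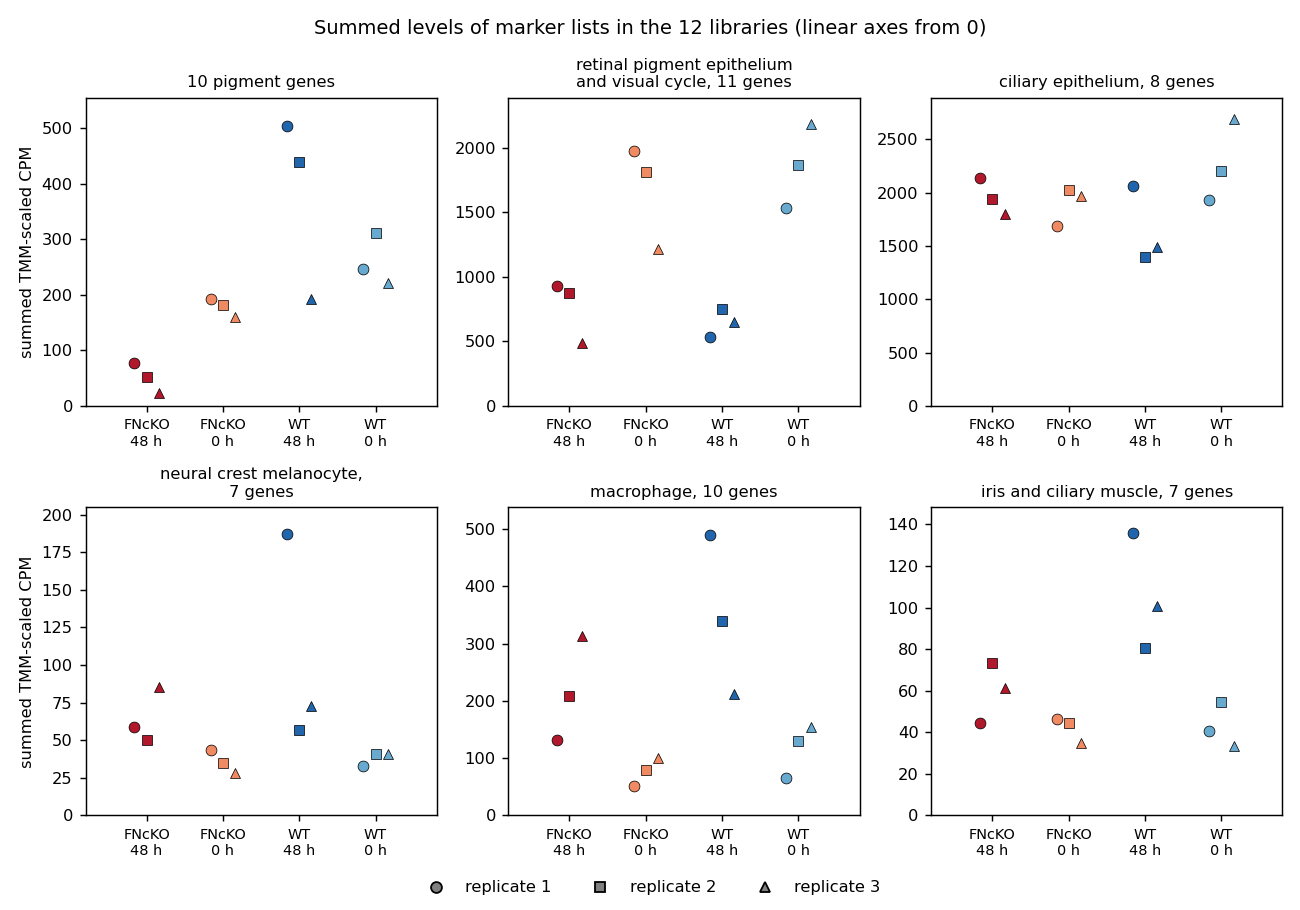
Summed level (TMM-scaled CPM, linear axes from 0) of the 10 pigment genes and of 5 marker lists in FNcKO 48 h, FNcKO 0 h, WT 48 h and WT 0 h libraries; each point is 1 library. The pigment genes lie between 23.0 and 76.9 CPM in FNcKO at 48 h and between 193 and 504 CPM in WT at 48 h. The iris and ciliary muscle list, at 48 h mostly Smtn, lies between 44.3 and 73.2 CPM in FNcKO and between 80.7 and 136 CPM in WT. The retinal pigment epithelium list overlaps between the genotypes at 48 h.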

How the data were processed

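The authors deposited a whole-number read count per gene for each of the 12 libraries, with gene coordinates, coding length and an RPKM value, per the file headers. The deposited RPKM is the count over coding length and library total (largest relative difference 1.4e-14) and was used for levels between genes and ratios. The submitters' processing notes name HTSeq 0.6.1p1, TopHat2 2.1.0, Trim Galore 0.4.4, edgeR 3.16.5, bedtools 2.17, FastQC, SAMtools 1.4 and the mm10 build, without roles; the strand setting was not stated. A combined table holds 9 libraries, and its column named for WT 0 h replicate 1 holds, in all 24147 genes, the counts deposited for FNcKO 0 h replicate 1, so the per-library files were used throughout.

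Counts were fitted in R 4.3.3 with edgeR 4.0.16 (filterByExpr by group, TMM factors 0.754 to 1.165, robust quasi-likelihood, 4 group means, all 12 libraries). SE is the size of a log2 value over the root of its F statistic, an approximation. P-values set a difference against the spread between libraries within groups. For each gene that spread was estimated once over all 4 groups and drawn toward that of other genes. A count of 0 allows up to 3 counts, for counting error only. The same steps were tested on simulated data. The members and all lists were chosen with earlier results of these data known. All 10 genes are named. From other lists, called genes were named, at most 4 per direction and comparison, with some exceptions chosen after their values were seen. These were Rab27a, Cnn1, Myh11, Smtn, Des, Synpo2, Chrm3, Dcn, Lum, Cdh5, Ptgds, Ogn, Pdgfra, Kdr and Foxc2 between genotypes at 48 h. They were also Kit in WT, Sox10 and Pax3, and the levels of Cryaa, Cryab, Foxe3 and Pax6. Likeness was ranked over all tested genes outside the 10. Alternatives were other scalings, no filter, DESeq2 1.42.0, fits of the compared groups alone, a replicate block, leaving out each library, and leaving out both 0 h libraries numbered 1.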

Additional observations from a re-analysis of the deposited data

Results flagged for a closer look

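Tyr and Slc45a2 were set apart because every WT 48 h library was above every WT 0 h library while every FNcKO 48 h library was below every FNcKO 0 h library. The difference of the 48 h responses, FNcKO minus WT, was −3.41 on the log2 scale for Tyr and −3.34 for Slc45a2. Neither passed the test of the difference (edgeR, BH-adjusted p = 0.636 for Tyr and 0.945 for Slc45a2). Slc45a2 rests on 5, 17, 46 and 15 counts in FNcKO at 48 h, FNcKO at 0 h, WT at 48 h and WT at 0 h. Groups of 3 libraries were too small for a search for single libraries that stand apart.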

How the results depend on the processing

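The count of the 10 genes called at 48 h against 0 h was 6 in WT and 5 to 7 over all alternatives, and 3 in FNcKO, with 2 to 5 when single libraries were left out (5 without FNcKO 48 h replicate 1). FNcKO against WT at 48 h, the count was 4, with 7 by DESeq2, 0 with only the groups compared, 0 with both 0 h libraries numbered 1 left out, and 0 to 6 when single libraries were left out; the cause was not tested. The difference of the responses gave 0, and 1 by DESeq2. With a replicate block the counts were 7 in WT, 4 in FNcKO, 6 between genotypes at 48 h and 0 at 0 h; same-numbered libraries deviated together with correlations of −0.474 to 0.291, so the numbers were not taken to pair them. Total counts as the scale moved the median of all genes to 0.285 in FNcKO and 0.226 in WT over time. Values that changed sign had not passed: Slc24a5 in FNcKO over time (0.193 by total counts, 0.102 without both 0 h libraries numbered 1, −0.333 to 0.284 without single libraries), and at 0 h between genotypes Rpe65 (−0.058, −0.05 and −0.215 to 0.345) and Slc45a2 (−0.351 without both, −0.243 to 1.213). Without single libraries, Tyr (−0.299 to 0.074), Pmel (−1.607 to 0.439) and Slc24a5 (−0.664 to 0.19) at 0 h, Rpe65 at 48 h (−0.745 to 1.764), and the response differences of Oca2 (−0.575 to 0.149) and Rpe65 (−0.831 to 1.679) did so too. Of the single-gene values, 852 kept direction and call, 47 lost and 18 gained a call and 18 changed sign. Depth limits Slc45a2, Mlana in FNcKO and Rpe65 at 48 h.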
